A study of Mus musculus with 2 samples.

Results

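The Hox genes are the homeobox genes of the Hoxa, Hoxb, Hoxc and Hoxd clusters. They were read here in mouse embryonic stem (ES) cells that lacked Dnmt1 and in their control. Members were every gene whose symbol in the array annotation began with Hoxa, Hoxb, Hoxc or Hoxd followed by a number, taken from probe sets with 1 gene symbol. There were 36 members of 18193 genes, read by 53 of 45037 probe sets, and 3 of the 36 were antisense RNA genes (Hoxa11os, Hoxb5os and Hoxd3os1) whose symbols fit the same rule. The other 33 were protein-coding genes, of 39 such genes in the RefSeq table. The remaining 6 had no probe set with 1 gene symbol here and were not members. Of these, Hoxb8 and Hoxd4 were read by probe sets with several Hox symbols, given below.

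The data were 2 Affymetrix Mouse Genome 430 2.0 arrays of total RNA, 1 from the control ES cells and 1 from the ES cells whose title names a Dnmt1 knockout (KO). The stated purpose was to have a control for other experiments on differentiation. The title alone marks the KO array, because the source name of both samples describes the control. Not given in the sources used here were the ES line, the clone, the kind of allele, the passage and the use of feeder cells, and 1 array per group allows no test and no spread between replicates. The values are MAS5 signals, which summarise the probes of a probe set on a linear scale.

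Hox proteins are transcription factors that bind DNA through a homeodomain and give cells their position along the head to tail axis. The genes lie in 4 clusters on different chromosomes, and genes at matching positions in the clusters carry the same paralog number, from 1 at the end used in anterior tissue to 13 at the end used in posterior tissue. In undifferentiated ES cells the clusters are largely held silent by Polycomb complexes, and retinoic acid and Wnt signals open them from the low-numbered end during differentiation. Dnmt1 copies DNA methylation onto newly replicated strands. Many Hox promoters are CpG islands, stretches rich in the CpG dinucleotide that Dnmt1 methylates, and such islands are mostly free of methylation in ES cells.

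Both arrays carried the markers of ES cells, and the KO label fit the Dnmt1 signals. All 10 markers of pluripotent cells were above the array median on both arrays, against 63.5% (control) and 64.4% (KO) of all genes. The 3 Dnmt1 probe sets read 1949.1, 874.7 and 348.3 on the control array and 262.1, 56.8 and 20.0 on the KO array. No label says which of them, if any, reads a deleted exon. The median over all probe sets other than the Affymetrix controls was 60.9 (control) and 74.2 (KO), and a member was counted on an array when any of its probe sets exceeded that array's median. Deposited signals of the 10995 genes above the median on both arrays were 1.34-fold higher on the KO array at the median gene, a shift of 0.43 on the log2 scale. Where a probe set is given a pair of signals, the control comes first. Log2 ratios below are relative to this shift unless they are called as deposited.

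Few Hox genes stood above the array median in either culture. On the control array 3 of 36 members did (8.33%), against 63.5% of all genes counted the same way. On the KO array 5 of 36 did (13.9%), against 64.4% of all genes. The 3 of the control array, Hoxa5, Hoxa9 and Hoxc6, were above the median on the KO array too, where Hoxa11 and Hoxd13 joined them. The remaining 31 members were below the median on both arrays, among them all 3 antisense genes. By probe set, 4 of 53 (control) and 5 of 53 (KO) were above the median, where 50% of all probe sets are by construction. The median Hox probe set lay at percentile 20.2 (control) and 23.8 (KO) of all signals. No detection calls came with the signals, so one below the median does not show that a transcript is absent.

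**Figure D1:**
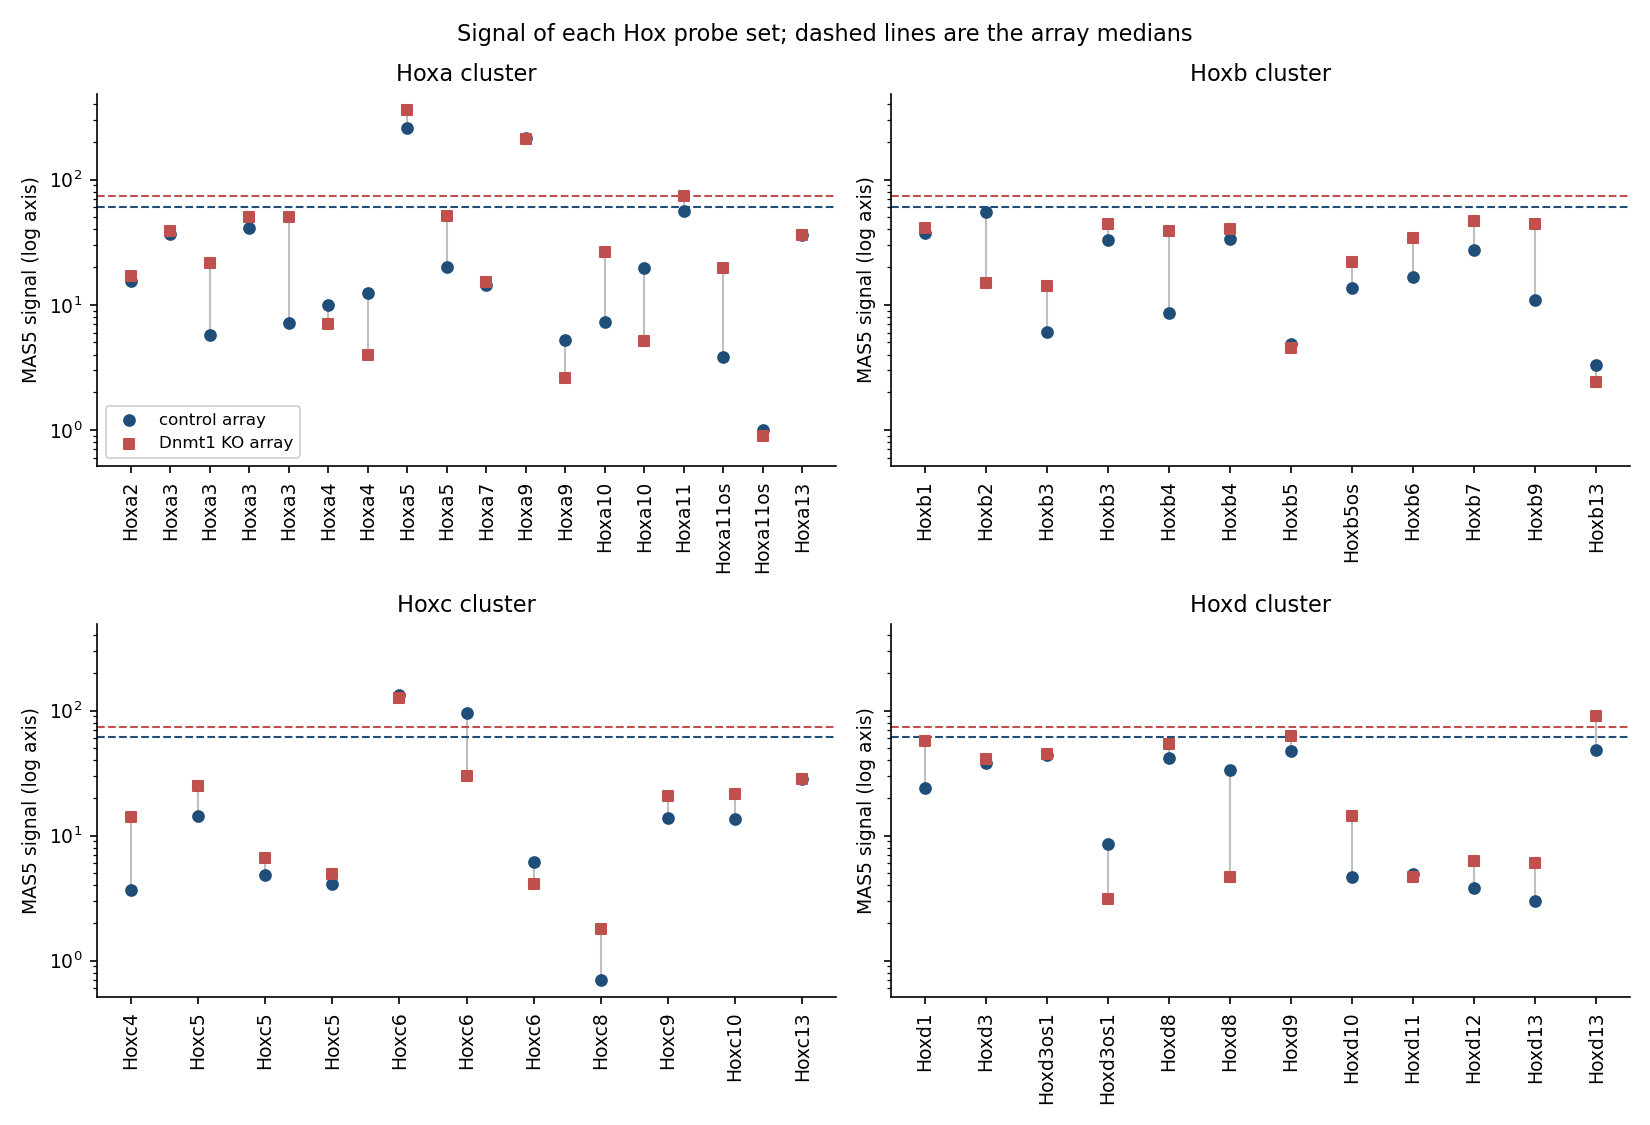
MAS5 signal (log axis) of each of the 53 Hox probe sets on the control array (circles) and the Dnmt1 KO array (squares), 1 panel per cluster, ordered by paralog number, with the array medians of 60.9 and 74.2 as dashed lines. Repeated names are different probe sets of a gene, and the points above the lines on both arrays belong to Hoxa5, Hoxa9 and Hoxc6.

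The genes above the median each rested on part of their probe sets wherever they had more than 1. Hoxa5, which patterns the neck, the upper thorax and the lung, had 258.6 (control) and 358.0 (KO) from 1443803_x_at. Its other probe set, 1448926_at, had 20.0 and 51.5, below the median of both arrays. The suffix _x_at marks a probe set with probes that can bind other transcripts as well.

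Hoxa9, a gene of posterior axial and limb patterning that also acts in blood stem cells, had 216.2 (control) and 211.2 (KO) from 1421579_at, and 5.2 and 2.6 from 1455626_at. Hoxc6, a gene of thoracic identity, had 132.3 and 125.1 from 1427361_at, 95.9 and 30.1 from 1427362_x_at, and 6.1 and 4.1 from 1427454_at. So 1427362_x_at was above the median on the control array and below it on the KO array, while the other 2 Hoxc6 probe sets kept their side.

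Hoxa11, a gene of forelimb and uterine development with 1 probe set, had 55.8 (control) and 74.7 (KO). Hoxd13, a gene of digit formation, had 48.3 and 90.2 from 1440626_at and 3.0 and 6.0 from 1422239_at. These are the 2 members by which the count on the KO array exceeds that on the control array, and both lay close to the median on both arrays. The Hoxa11 signal minus the array median was -5.1 in the control and 0.5 in the KO cells, and for Hoxd13 these differences were -12.6 and 16.0.

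The next members below the median were Hoxb2 at 54.9 on the control array and Hoxd9 (62.0), Hoxd1 (57.2) and Hoxd8 (53.8) on the KO array. Of the 13 members with at least 2 probe sets, 4 had any above the median and none had all above it on either array. Over the whole table, 44.7% of genes with several probe sets and any above the control median had all of them above it, and the share was 44.7% on the KO array as well. Of the 23 members with 1 probe set, none was above the median on the control array and Hoxa11 alone was on the KO array, while 48.4% and 49.6% of all genes with 1 probe set were.

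The promoter sequences of Hoxa5, Hoxa9, Hoxa11 and Hoxd13, 4 of the 5 genes above the median, differed widely in CpG content, and Hoxc6 is not among the windows. They are shown because CpG is the substrate of Dnmt1, and because they place the genes with signal beside a neighbour of high CpG content that stayed below it. Each is the 250 bases before the annotated start on the gene's strand, 5′ to 3′, from RefSeq on GRCm38.p6, with every CpG in capitals. The windows are chr6:52204588-52204837 for Hoxa5, chr6:52227371-52227620 for Hoxa9 and chr6:52245811-52246060 for Hoxa11, all on the minus strand, and chr2:74667975-74668224 for Hoxd13 on the plus strand. Hoxa13, at chr6:52260881-52261130 on the minus strand, is that neighbour.
Hoxa5: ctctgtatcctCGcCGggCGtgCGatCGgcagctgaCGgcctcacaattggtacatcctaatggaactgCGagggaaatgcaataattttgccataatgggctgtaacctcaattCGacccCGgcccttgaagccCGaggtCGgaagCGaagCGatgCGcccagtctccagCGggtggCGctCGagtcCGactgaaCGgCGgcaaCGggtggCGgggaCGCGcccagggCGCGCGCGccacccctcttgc
Hoxa9: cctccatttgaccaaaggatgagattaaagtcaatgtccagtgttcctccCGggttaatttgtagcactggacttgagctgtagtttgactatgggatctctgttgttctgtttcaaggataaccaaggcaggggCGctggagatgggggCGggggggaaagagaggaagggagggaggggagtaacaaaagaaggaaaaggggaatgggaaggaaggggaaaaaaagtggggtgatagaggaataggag
Hoxa11: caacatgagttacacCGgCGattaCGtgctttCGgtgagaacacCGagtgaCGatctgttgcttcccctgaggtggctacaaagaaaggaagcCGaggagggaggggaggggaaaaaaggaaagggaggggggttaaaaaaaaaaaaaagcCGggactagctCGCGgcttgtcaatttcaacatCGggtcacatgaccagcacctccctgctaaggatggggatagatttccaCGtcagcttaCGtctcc
Hoxd13: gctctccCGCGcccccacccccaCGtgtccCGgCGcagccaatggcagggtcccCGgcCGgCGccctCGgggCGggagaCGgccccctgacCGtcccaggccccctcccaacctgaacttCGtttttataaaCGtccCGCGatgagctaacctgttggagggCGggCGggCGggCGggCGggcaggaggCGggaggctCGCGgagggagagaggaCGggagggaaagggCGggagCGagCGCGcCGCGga
Hoxa13: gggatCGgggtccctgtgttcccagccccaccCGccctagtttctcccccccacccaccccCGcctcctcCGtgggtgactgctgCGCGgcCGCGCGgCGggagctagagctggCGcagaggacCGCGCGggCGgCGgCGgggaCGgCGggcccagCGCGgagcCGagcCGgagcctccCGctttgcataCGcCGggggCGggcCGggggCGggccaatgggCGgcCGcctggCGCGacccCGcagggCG
Hoxa5 and Hoxd13 have 28 and 31 CpGs in their windows, Hoxa11 has 13 and Hoxa9 has 3, while Hoxa13, whose signal was 36.4 on both arrays, has 35.

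The RefSeq promoter table held 23 windows of 21 members, mostly of the Hoxa and Hoxd clusters. Only Hoxb1, Hoxb4 and Hoxc4 among them were from the Hoxb and Hoxc clusters. The Hox windows had a median of 13 CpGs (range 2 to 35), against 6 over all 32851 windows in the table, and 18 of the 23 had more than 6. Their observed over expected CpG, the CpG number set against that from the C and G content, had a median of 0.69 against 0.37, and 12 of 23 (52.2%) exceeded 0.6, against 34.0% of all windows. Developmental homeobox genes outside the clusters had a median of 16 CpGs over 51 windows, so a high CpG number was not particular to Hox genes. Windows of members above the array median on at least 1 array had 3 to 31 CpGs, and those of members below it on both arrays had 2 to 35, so the ranges overlapped. The lowest was a Hoxd11 window and the highest were those of Hoxa13 and Hoxa11os. Windows of 1 cluster are neighbours and are not independent of each other.

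A search on both strands found TATAAA, the TATA box core, in 3 of the 23 Hox windows (13%) and in 12.4% of all windows. The Hox windows with it belong to Hoxa10, Hoxa11os and Hoxd13. AGGTCA, the core site bound by retinoic acid receptors and other nuclear receptors, was in 5 Hox windows (21.7%) and in 14% of all, namely in those of Hoxb4, Hoxc4, Hoxd3, Hoxd8 and Hoxd10. A direct repeat of AGGTCA with 5 bases between the copies, which also counts as an AGGTCA match, was in 0 Hox windows and in 3 windows of the whole table.

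**Figure D2:**
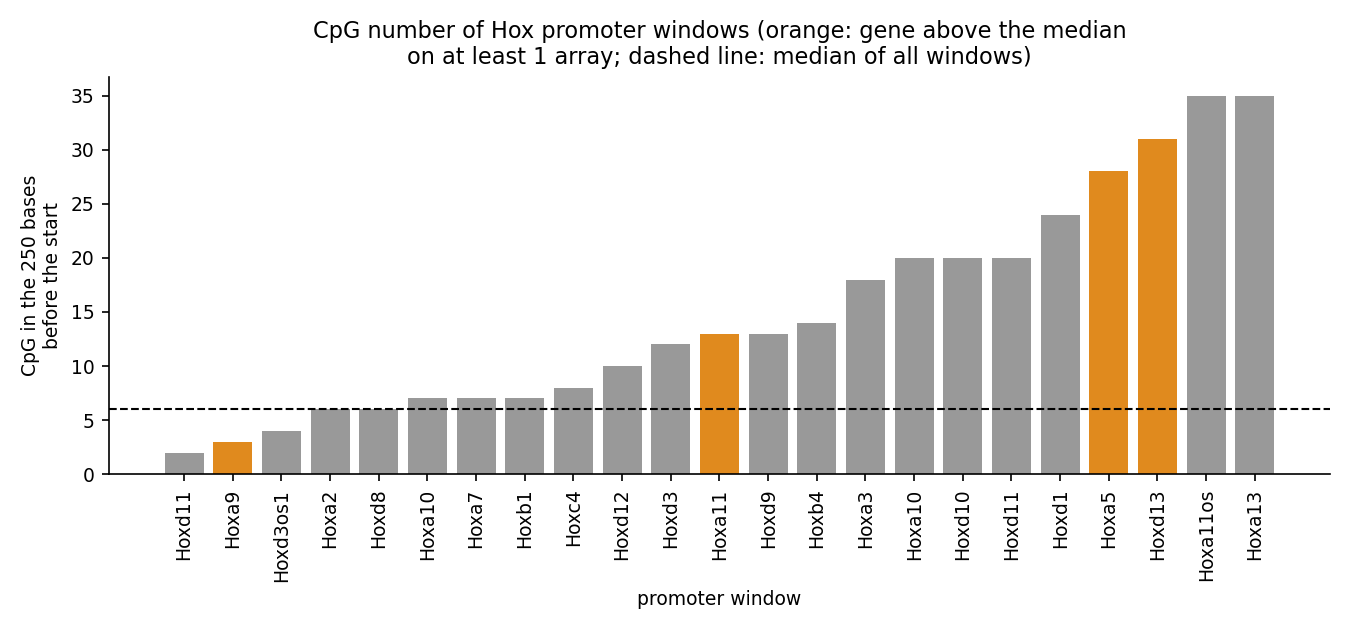
Number of CpG dinucleotides in the 250 bases before the start for the 23 promoter windows of Hox members, sorted, with orange bars for genes above the array median on at least 1 array. The dashed line is the median of 6 over all windows, and orange bars stand at both low (Hoxa9, 3) and high (Hoxd13, 31) CpG numbers.

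The members above the median came from 2 clusters on the control array and from 3 on the KO array. In the Hoxa cluster, on chromosome 6, 2 of 10 members were above it on the control array and 3 of 10 on the KO array. In the Hoxb cluster, on chromosome 11, none of 10 members was above it on either array, and the highest Hoxb signals were 54.9 for Hoxb2 on the control array and 47.0 for Hoxb7 on the KO array. In the Hoxc cluster, on chromosome 15, 1 of 7 members was above it on each array. In the Hoxd cluster, on chromosome 2, none of 9 was above it on the control array and 1 of 9 was on the KO array. With so few genes per cluster these counts are a description, and differences between clusters were not tested. Signals of different probe sets depend on their probes, so they give no order of transcript levels between genes.

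By paralog number, the signals above the median were scattered. Paralog numbers 5, 6 and 9 each had 1 member above the median on both arrays, of 4, 2 and 4 members. Numbers 11 and 13 had 1 of 3 and 1 of 4 on the KO array alone. Numbers 1, 2, 3, 4, 7, 8, 10 and 12 had none on either array. No paralog number had members above the median from more than 1 cluster.

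**Figure D3:**
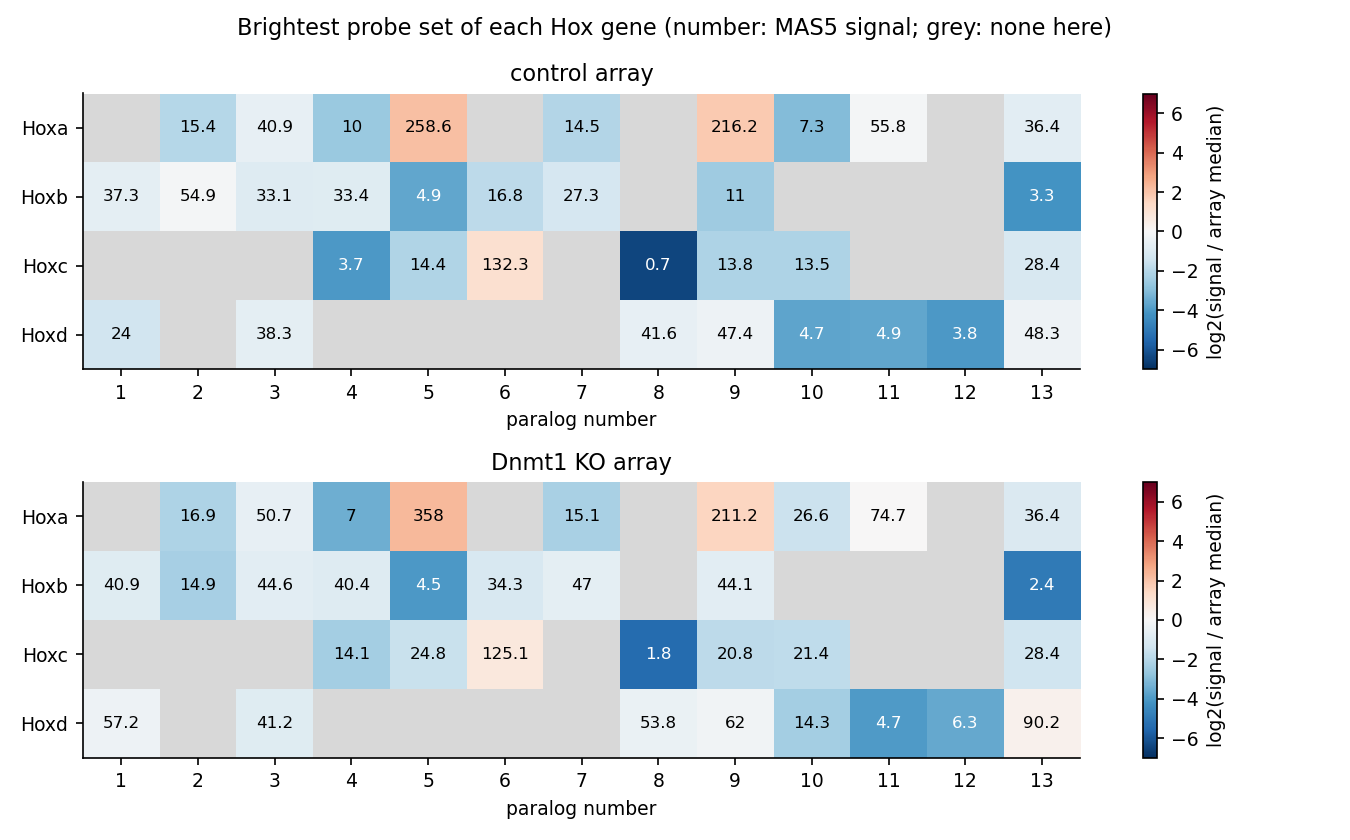
Brightest probe set of each of the 33 protein-coding Hox genes, arranged by cluster and paralog number, for the control array (top) and the Dnmt1 KO array (bottom). Numbers are MAS5 signals and colours are log2 of the signal over the array median, with grey where there was no member. Cells above the median (red) are few on both arrays, and no column holds more than 1.

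The anterior group, numbers 1 to 3, pattern the hindbrain and the branchial arches and respond early to retinoic acid. None of its 8 members was above the median, and its 13 probe sets ranged from 5.7 to 54.9 on the control array and from 3.1 to 57.2 on the KO array. Hoxb1, a hindbrain segment gene, had 37.3 and 40.9. Hoxd1, which acts in sensory neurons, had 24.0 and 57.2. Hoxa2, which specifies the skeleton of the second branchial arch, had 15.4 and 16.9.

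Within the anterior group, Hoxb2 read lower on the KO array, with 54.9 (control) and 14.9 (KO). Its 1 probe set was below the median on both arrays. Hoxa3, needed for the thymus and parathyroid, was read by 4 probe sets at 36.6, 5.7, 40.9 and 7.1 on the control array. On the KO array they read 39.0, 21.7, 50.7 and 50.4. All 4 were higher on the KO array as deposited, but the size of the difference ran from 0.09 to 2.83 on the log2 scale within this gene. Hoxb3 had 6.1 and 33.1 against 14.2 and 44.6, and Hoxd3 had 38.3 against 41.2.

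The central group, numbers 4 to 8, gives identity to the neck and thorax. Apart from Hoxa5 and Hoxc6, its 11 other members were below the median on both arrays. Hoxb4, which supports blood stem cells, had 8.6 and 33.4 on the control array and 39.2 and 40.4 on the KO array. Hoxb6 and Hoxb7 had 16.8 and 27.3 on the control array and 34.3 and 47.0 on the KO array. Hoxa7 had 14.5 and 15.1 and Hoxb5 had 4.9 and 4.5, nearly the same on both arrays.

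Among central genes below the median, where signals scattered widely, Hoxa4 and 1 probe set of Hoxd8 read lower on the KO array. Hoxc8, Hoxc4 and Hoxc5 read higher. The 2 probe sets of Hoxa4 went from 10.0 and 12.5 to 7.0 and 4.0. Hoxd8 had 1 probe set at 41.6 and 53.8 and another at 33.5 and 4.7, so its probe sets differed in direction. Hoxc8, a gene of the lower thorax, had the lowest signals of any protein-coding member, 0.7 and 1.8. Hoxc4 had 3.7 and 14.1, and the 3 probe sets of Hoxc5 lay between 4.1 and 14.4 on the control array and between 4.9 and 24.8 on the KO array.

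The posterior group, numbers 9 to 13, patterns the limbs, the lower trunk and the urogenital tract. Outside Hoxa9, Hoxa11 and Hoxd13, its 12 other members were below the median on both arrays. Hoxb9 and Hoxc9 had 11 and 13.8 on the control array and 44.1 and 20.8 on the KO array. Hoxd9 had 47.4 and 62.0. Hoxa10, needed in the uterus, had 1 probe set at 7.3 and 26.6 and another at 19.7 and 5.1, again in opposite directions.

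Apart from Hoxa11 and Hoxd13, given above, the members numbered 10 to 13 were below the median on both arrays. Hoxa13, Hoxb13 and Hoxc13 had 36.4, 3.3 and 28.4 on the control array and 36.4, 2.4 and 28.4 on the KO array. Hoxd10, Hoxd11 and Hoxd12 had 4.7, 4.9 and 3.8 on the control array and 14.3, 4.7 and 6.3 on the KO array. Hoxc10 had 13.5 and 21.4.

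The antisense genes were low as well. Hoxa11os, which overlaps Hoxa11 in RefSeq, had 3.8 and 1.0 on the control array and 19.7 and 0.9 on the KO array. Hoxb5os, which overlaps Hoxb5 and Hoxb6, had 13.6 and 22.0. Hoxd3os1, which overlaps Hoxd3, had 44.2 and 8.6 against 45.3 and 3.1. A further 3 probe sets carried 2 Hox symbols each and were kept out of the counts. Those for Hoxd4 and Hoxd3 had 27.4 and 22.7 on the control array and 29.6 and 4.4 on the KO array, and that for Hoxb8 and Hoxb7 had 9.1 and 41.5. All were below the median on both arrays.

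No Hox gene with a ratio from signals above the median on both arrays differed by 2-fold between the cultures. For ratios, signals under an array's median were raised to it, so a gene below it on 1 array has only a bound and a gene below it on both has none. Of the 5 members with a ratio or bound, 0 reached 2-fold higher in the KO and 0 reached 2-fold lower. This held with the shift taken off or left in. Hoxa11 and Hoxd13 entered with lower bounds, so a rise of 2-fold or more in them is not excluded. Of all 12226 genes above the median on at least 1 array, 1.09% were higher by 2-fold or more and 0.532% lower by as much relative to the shift, and 4.92% and 0.0982% as deposited. Such shares are near 0 as well, so the count over the 5 members sets them apart in no way. Medians here and for the lists take a bound at its limit, and the median of the 5 members, -0.13 (0.29 as deposited), is the bound of Hoxa11. Over all those genes the median was -0.0049 (0.42 as deposited). The gap between members and all genes depended on the scaling, since quantile normalization gave 0.0070 against 0.0072 and lowess 0.016 against 0.011.

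The 3 genes above the median on both arrays lay near or below the shift. Hoxa5 had a log2 ratio of 0.04 with the shift taken off, 0.47 as deposited and -0.01 with the mean over its probe sets. Hoxa9 had -0.46 relative to the shift and -0.03 as deposited. Hoxc6 had -0.51 and -0.08. The ratios of Hoxa9 and Hoxc6 were below 0 under each scaling and floor that gave a value. As deposited, the signals of their brightest probe sets were nearly equal on both arrays. The Hoxc6 probe set 1427362_x_at differed more, at -1.67 as deposited and -2.10 relative to the shift, without the floor. As a technical scale, the log2 ratio varied between probe sets of 1 gene by 0.24 (SD, pooled over 4704 genes). This SD was taken only from probe sets above the median on both arrays, so it does not apply to 1427362_x_at. It covers neither culture nor array differences.

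Hoxa11 and Hoxd13 have bounds. Hoxa11 was at least -0.13 relative to the shift and at least 0.29 as deposited, a bound whose sign thus depended on the scaling. Hoxd13 was at least 0.14 relative to the shift and at least 0.57 as deposited.

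Below the median, the Hox signals scattered widely between the arrays. Of the 47 Hox probe sets below it on both arrays, 33 were higher on the KO array as deposited (70.2%), 12 were lower and 2 were equal. Of all 20949 such probe sets, 61.3% were higher on the KO array. The SD of the log2 ratio as deposited was 1.18 over the Hox probe sets and 1.14 over all of them, against 0.35 over probe sets above the median on both arrays. A difference of at least 2-fold in either direction as deposited occurred in 20 of the 47 Hox probe sets (42.6%) and in 29.7% of all probe sets below the median on both arrays. In this range the probe sets of Hoxa10, Hoxd8, Hoxa11os and Hoxd3os1 disagreed in direction within each gene.

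Most genes flanking the clusters were above the array median. The 3 nearest protein-coding genes with a probe set were taken on each side of each cluster, by RefSeq gene order. Of these 24 genes, 21 (control) and 22 (KO) were above the median, against 3 and 5 of the 36 Hox members between them. Among all genes, 63.5% (control) and 64.4% (KO) had a probe set above it. On chromosome 6, Skap2, an adaptor protein gene at the anterior end of the Hoxa cluster, had 672.8 and 816.4. Beyond Hoxa13, the homeobox gene Evx1, which acts in the primitive streak and spinal cord, had 10.8 and 15.9. The next gene, Hibadh, an enzyme of valine breakdown, had 880.1 and 1052.4.

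On chromosome 2, Evx2, the homeobox gene beside Hoxd13, had 60 (control) and 111.6 (KO). It thus crossed the median like Hoxd13, and its log2 ratio was at least 0.45 relative to the shift. Lnpk, a protein of the endoplasmic reticulum, had 356.5 and 528.7 on the far side of Evx2, and Mtx2, a mitochondrial import gene beside Hoxd1, had 687.9 and 862.8. On chromosome 15 the gene beside Hoxc4 was Smug1, a DNA repair glycosylase, with 152.5 and 221.7, and that beside Hoxc13 was Calcoco1, with 298.8 and 419.1.

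On chromosome 11, Skap1 beside Hoxb1 was below the median at 26.5 and 67.5, and Snx11 beyond it had 151.9 and 305.9. Ttll6 beside Hoxb13 had 113.9 and 123.0. Calcoco2, an autophagy receptor gene next to Ttll6, had 183.5 and 732.1, a log2 ratio of 1.57 relative to the shift. It was the one flanking gene of the 24 with a difference of at least 2-fold relative to the shift. Snx11 also passed 2-fold as deposited, at 1.01.

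**Figure D4:**
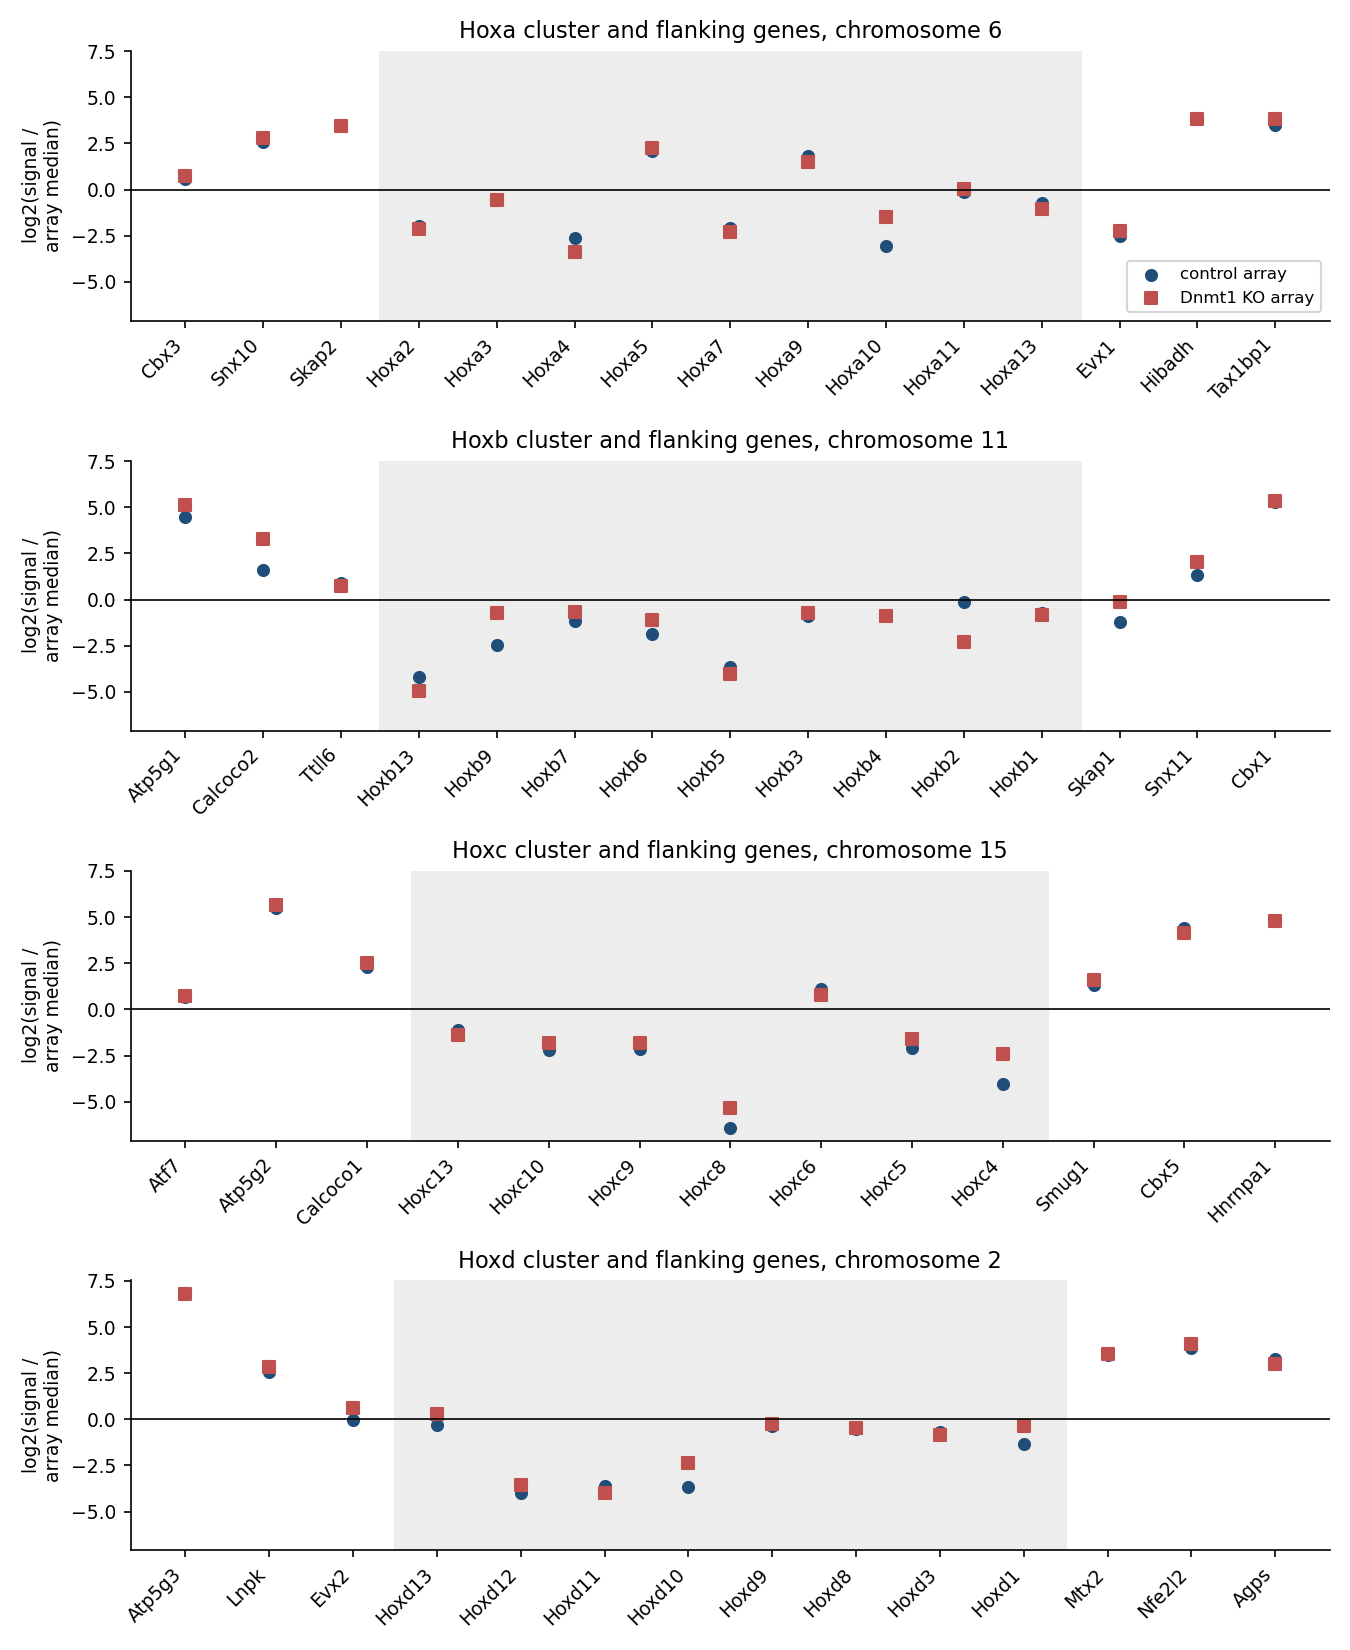
Log2 of the signal over the array median for the brightest probe set of each gene, in chromosomal gene order, for the 4 Hox clusters (grey band) and 3 genes on each side, on the control array (circles) and the Dnmt1 KO array (squares). Hox genes that were not members are left out. Of the 24 flanking genes, 21 and 22 lie above 0, while most Hox genes lie below it on both arrays.

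Genes that act with or on the Hox genes were read from lists. Beside the counts below, 63.5% (control) and 64.4% (KO) of all genes were above the median. Proteins of the TALE class (Pbx, Meis and Pknox) bind DNA together with Hox proteins, and 4 of 8 on the array were above the median on the control array and 6 of 8 on the KO array. Meis1 had a log2 ratio of -0.53 (81.5 to 75.6), Pknox1 0.43 (158.0 to 285.8) and Pbx3 -0.30 (350.8 to 382.3, or 0.12 as deposited). With the shift taken off or left in, none of the 6 with a ratio or bound was 2-fold different, and their median was 0.10, or 0.52 as deposited.

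The Cdx genes switch on central Hox genes, and the ParaHox genes form a related cluster. Of 6 on the array, 1 was above the median on each array. Cdx2 had 70.7 and 54.1, at most -0.36 relative to the shift and at most 0.07 as deposited. Gsx1 had 39.8 and 79.2, at least -0.05 relative to the shift and at least 0.38 as deposited. Cdx1, Cdx4, Gsx2 and Pdx1 were below the median on both arrays.

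Most chromatin regulators of the clusters were above the median. All 11 genes of trithorax type, which methylate histone H3 at active Hox genes or oppose Polycomb, were above it on both arrays, and none differed by 2-fold. Kdm6b, a demethylase that removes the Polycomb mark, had -0.54 (303.0 to 280.0), Rbbp5 0.38 (412.5 to 718.8) and Ash2l -0.33 (2019.2 to 2159.6). This list had a median of -0.12, or 0.30 as deposited.

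Of 26 Polycomb genes, 24 (control) and 25 (KO) were above the median, and the median log2 ratio of the 25 with a ratio or bound was -0.01 (0.42 as deposited). Phf1, an accessory subunit that recognises histone H3, was at least 2-fold higher relative to the shift (70.3 to 197.4, 1.06), and none was 2-fold lower. Bmi1, a subunit of Polycomb repressive complex 1, had 0.91 (62.1 to 156.9) and Phc3 at least 0.85 (46.8 to 147.8), which also passed 2-fold as deposited. All 3 control signals were near or below the control median of 60.9, as was that of Pcgf1 (72.8 to 124.4), and Cbx8 was below the median on both arrays (7.3 to 18.6).

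In the retinoic acid pathway, which opens the clusters in differentiating ES cells, 9 of 17 genes were above the median on each array. The 2 genes at least 2-fold higher relative to the shift were Crabp1, a retinoic acid binding protein (127.6 to 398.3, 1.22), and Stra8, a meiotic gene induced by retinoic acid in germ cells (70.2 to 213.7, 1.18). Aldh1a2, which makes retinoic acid in the embryo, had 0.83 (86.6 to 206.2) and passed 2-fold as deposited alone. None was 2-fold lower, and the median of the 9 was 0.30, or 0.72 as deposited. Rarb, Rxrg, Aldh1a1, Aldh1a3, Cyp26a1, Cyp26b1, Dhrs3 and Stra6 were below the median on both arrays. Of these, Rarb and Cyp26a1 are direct targets of retinoic acid. Rarb had 46.7 and 34.8, and Cyp26a1 had 9.6 and 70.1, the latter just under the KO median of 74.2.

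A longer list of cluster neighbours, drawn from gene names rather than the RefSeq order, had 19 (control) and 20 (KO) of 23 genes above the median. Calcoco2 was its one gene higher by 2-fold or more relative to the shift. Of 15 noncoding RNAs of the clusters, Hoxb5os alone had a probe set with a single symbol.

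Other developmental homeobox genes were above the median more often than Hox genes. Of 60 such genes outside the clusters, 19 of the control array (31.7%) and 22 of the KO array (36.7%) were above it. None of the 24 with a ratio or bound was 2-fold different relative to the shift, and 1 was 2-fold higher as deposited. This was Tlx3, a gene of sensory neurons (64.9 to 155.9, 0.84 relative to the shift). Six3, a forebrain gene, had at most -0.85 (99.9 to 72.2), and Nkx2-3, a gene of the gut and spleen, had -0.56 (97.6 to 88.6). This list had a median of -0.06, or 0.36 as deposited.

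**Figure D5:**
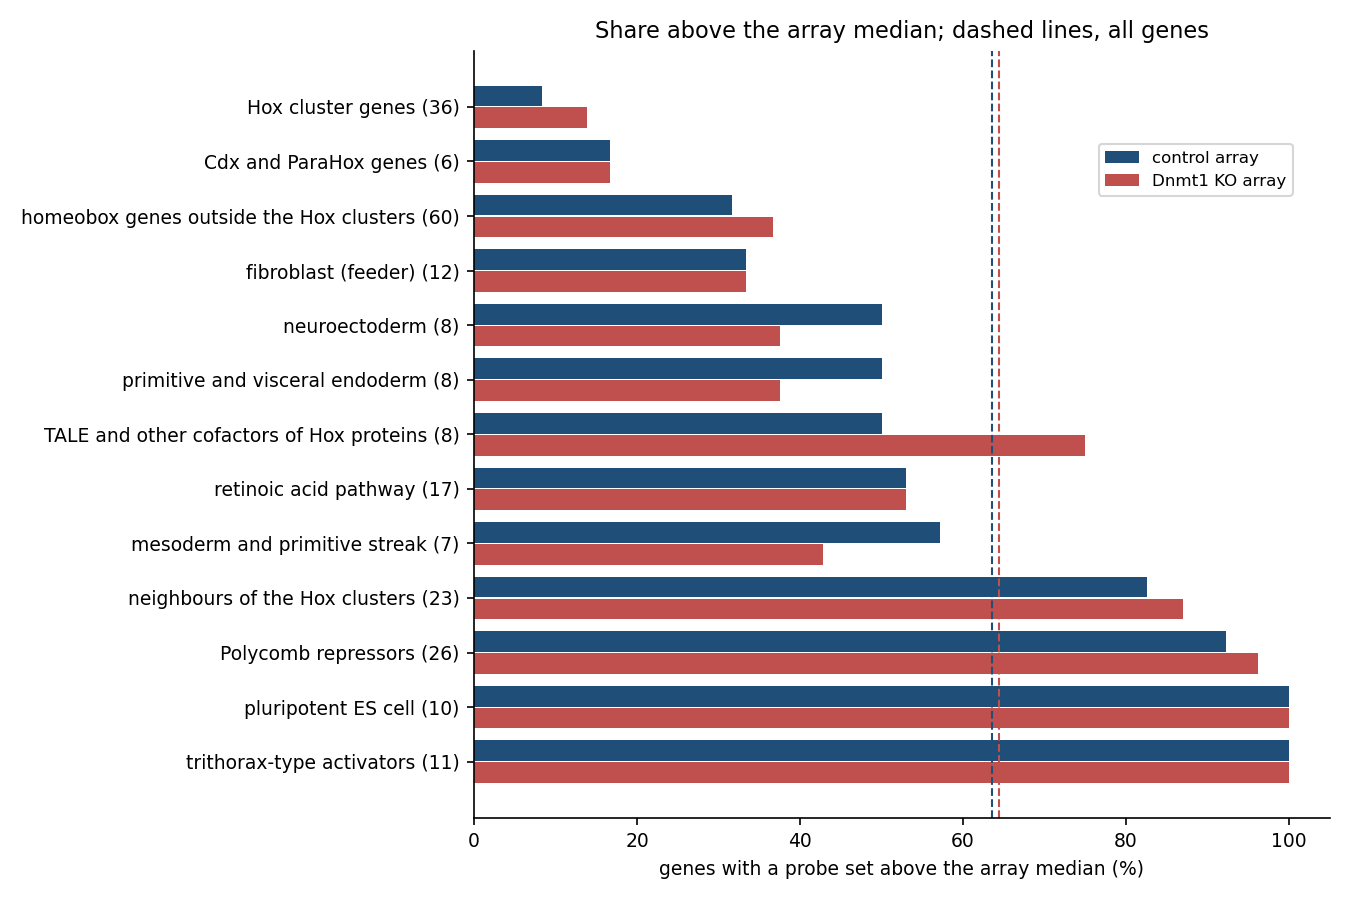
Share of genes with a probe set above the array median for the Hox members and for 12 other gene lists (number of genes on the array in brackets), on the control array (blue) and the Dnmt1 KO array (red). Dashed lines are the shares over all genes, 63.5% and 64.4%, and the Hox genes have the lowest bars, at 8.33% and 13.9%.

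Markers were also read for other cell types that a culture of ES cells can hold, and in which Hox genes can be active. Many were below the median on both arrays, but Thy1, Nes and Sparc were well above it on both. Of 12 fibroblast markers, which feeder cells would carry, 4 were above it on each array, and the summed signal of the list was 923.0 (control) and 1238.5 (KO). Col3a1, Dcn, Lum, Postn, Pdgfra, Twist2 and Prrx1 were below it on both arrays. Col1a1 and Col1a2, the abundant collagens of fibroblasts, had 94.3 and 172.9 on the control array and 80.2 and 190.9 on the KO array, log2 ratios of -0.66 and -0.28 (0.14 as deposited for Col1a2). Twist1 had 71.4 and 56.6. The other 2 with a ratio or bound lay above the shift, Thy1 with 340.0 and 549.8 and Col6a1, which crossed the median, with 8.4 and 89.4.

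Of the mesoderm and primitive streak markers, 4 (control) and 3 (KO) of 7 were above the median, with summed signals of 515.5 and 568.4. Mixl1, Eomes and Mesp1 had 105.8, 161.0 and 64.7 on the control array and 106.4, 179.1 and 59.5 on the KO array. Of 8 neuroectoderm markers, 4 and 3 were above it (summed signals 1127.5 and 1059.3). Pax6 (120.8 to 113) and Nes (448.8 to 425.4) had log2 ratios of -0.52 and -0.50. Sox1, Zic1, Olig2 and Neurog2 were below it on both arrays. Of 8 endoderm markers, 4 and 3 were above it (1406.6 and 2307.4). Hnf4a had at most -1.35 (140.5 to 60.1, or -0.92 as deposited), Gata4 at most -0.54 and Sparc 0.46 (1030.7 to 1904). Of the 10 pluripotency markers, 5 lay above and 5 below the shift, with a median of -0.03 (0.39 as deposited). Klf4, Nanog and Esrrb were higher in the KO cells by over 2-fold relative to the shift, at 1.92, 1.30 and 1.18. Utf1 (2460.9 to 2154.9) and Fgf4 (545.4 to 515.2) were lower as deposited too. With the mean over all probe sets in place of the brightest, Esrrb had 0.88 and Hnf4a -0.37, both under 2-fold. The part of other cell types in the Hox signals was not tested.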

How the data were processed

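Total RNA of control and Dnmt1 KO mouse ES cells was hybridised to 1 Affymetrix array each. The authors deposited linear signal intensities made with MAS5, per the submitters' processing notes. Not given in the sources used here were the scaling target and any detection calls. Of 45101 probe sets, 64 Affymetrix controls were left out, 34945 had 1 gene symbol, 932 had several and 9160 were unnamed here. Groups were taken from titles. For ratios a gene took its brightest probe set, by mean log2 signal after raising signals to the array median. Ratios were centred on the genes above the median on both arrays. With 1 array per group, no test was made, and precision is limited by having 1 array each. The members, lists and counting rules were chosen with earlier results of these data known.

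Named were members above the median on at least 1 array, the brightest of each cluster, those next to the median, Dnmt1, and up to 3 genes per list with the largest ratios. Other Hox genes and flanking genes were named after their values were seen. Alternatives covered the counting level, probe set choice, scaling, floor and fold threshold. Symbols, gene order and promoters were from RefSeq (GRCm38.p6), and promoter strands were checked on 1892 overlapping window pairs. The ratio procedure was tested on simulated data, with changes planted only in genes well above the control median, where most Hox genes do not lie. Python 3.11.15, pandas 2.3.3, numpy 2.4.6 and statsmodels 0.14.6 were used.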

Additional observations from a re-analysis of the deposited data

How the results depend on the processing

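The low count of Hox genes depended on the level and the rule for several probe sets, but stayed under the share of all genes in each setting whose share is given here. With the 75th percentile as the level, 2 and 1 of 36 members were above it on the control and KO arrays (37.0% and 37.2% of all genes), and with the 25th percentile, 18 and 21 (83.3% and 83.8%). With the median over single-gene probe sets, 3 and 3 were above it (57.4% and 57.6%), so Hoxa11 and Hoxd13 dropped out. With the mean log2 signal of a gene, 1 and 2 were (54.1% and 55.7%), and with all of its probe sets required above, 0 and 1 (41.9% and 42.6%). Leaving out probe sets ending in _s_at or _x_at gave 2 and 4 (62.6% and 63.5%), without Hoxa5. Adding probe sets of several symbols, which brought in Hoxb8 and Hoxd4, gave 3 and 5 of 38. Leaving out the antisense genes, a setting chosen after the data were seen, gave 3 and 5 of 33.

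Hox genes at least 2-fold different numbered 0 in either direction as deposited, with quantile normalization, lowess, the mean over probe sets, the floor at the 75th percentile, the other fold thresholds and without the antisense genes. A floor at the 25th percentile gave 1 lower (Hoxb2), and no floor gave 5 higher (Hoxa10, Hoxa11os, Hoxb9, Hoxc4 and Hoxd10) and 1 lower (Hoxb2), all below the median on both arrays. The log2 ratios of Hoxa9, Hoxc6 and Hoxd13 kept their sign in every setting that gave one, and those of Hoxa5 and Hoxa11 did not. Ratios of some list genes also depended on the probe set. With the mean over probe sets, Hnf4a had -0.37, Esrrb 0.88, Bmi1 0.43, Phc3 0.40 and Sparc 0.06, while Klf4 stayed over 2-fold at 1.65. No paired analysis was possible because each group has 1 array.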
